A study of Danio rerio with 18 samples.

Results

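Endothelial cells of the trunk of zebrafish embryos labelled as ythdf2 morphant were compared with endothelial cells of embryos labelled as mettl3 morphant, both at 28 hours post-fertilization (hpf). The comparison used 4 of the 18 samples of the series, chosen by their labels alone: 2 RNA-seq count columns for each label. A morphant is an embryo injected with a morpholino, an antisense oligomer that blocks translation or splicing of the targeted transcript. The labels name no other agent or allele in either group, and they state no strain, morpholino dose or morpholino sequence. The 2 columns of control endothelial cells, from embryos labelled normal, are given beside them as a reference level. The sources used here do not say how the endothelial cells were isolated or how many embryos were pooled.

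N6-methyladenosine (m6A) is a methyl mark on adenosines of messenger RNA. Mettl3 is the catalytic subunit of the complex that writes it, and Ythdf2 is a cytoplasmic reader that binds marked transcripts and recruits the deadenylation machinery, which shortens their poly(A) tails and starts their decay. A morpholino against mettl3 is directed at the placing of the mark, and one against ythdf2 at a reader of it. At this age the endothelium of the dorsal aorta, an artery, contains haemogenic cells that lose endothelial identity and turn into blood stem cells, a step known to depend on Notch signalling, on gata2b and on runx1.

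The columns held 3565193 and 3586337 counts on genes under the ythdf2 label, 3936443 and 3953954 under the mettl3 label and 4748921 and 4672870 under the control label. Between 13079 and 13471 genes had a count in the morphant columns, against 15944 and 15990 in the control columns. The paired columns of a label differed by little more than sampling noise, with a chi-square per degree of freedom of 1.04 for the ythdf2 label and 1.01 for the mettl3 label. The embryo and RIP pairs of the series gave 59.4 to 338. The columns of a label were therefore summed into a pool and counted as 1 sample, so no test between the labels was possible and each difference below stands without a replicate check. Folds are ratios of scaled counts, written as log2 of the ythdf2-labelled over the mettl3-labelled pool, so a positive value is higher under the ythdf2 label. Their 95% intervals cover counting error only. A gene was called higher or lower when the pools differed at least 2-fold and the interval left out equality. Levels are counts per 1000000 gene counts (CPM) and are not compared between genes, since no lengths were used. In bulk RNA such as this, fewer cells of a type and less RNA per cell cannot be told apart.

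The targeted genes were each highest in the pool that carries their own morpholino label. METTL3 (ENSDARG00000012827) stood at 137 and 143 CPM in the columns labelled mettl3 morphant, at 30.9 and 31.8 CPM in those labelled ythdf2 morphant and at 19.5 CPM in the control pool. Its log2 fold was −2.09 (95% counting interval −2.30 to −1.88). YTHDF2 (ENSDARG00000014498) stood at 22.7 and 29.3 CPM under the ythdf2 label, at 7.11 and 7.08 CPM under the mettl3 label and at 7.43 CPM in the control pool, a log2 fold of 1.95 (1.51 to 2.40). The columns of the labels did not overlap for either gene. A morpholino need not lower its target's transcript, so these levels do not check the labels, and the pools are named by their labels throughout.

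Most measured genes stood apart by the call rule. A minimum of 20 counts in either pool left 12351 genes, of which 3387 (27.4%) were called higher and 3297 (26.7%) lower in the ythdf2-labelled pool, 54.1% in either direction, and 5667 were not called. At 4-fold the shares were 17.8% and 16.2%. The median log2 fold was 0.02 with quartiles of −1.11 and 1.17; the scaling centres the folds, so this median does not show whether the pools lean to a side. With total counts in place of that scaling, 3243 genes were called higher and 3427 lower. Against the control pool, which both share, 19.3% of genes were called higher and 31.6% lower in the mettl3-labelled pool, and 21.6% and 32.2% in the ythdf2-labelled pool. Every count of list members below has to be read against the 27.4% and 26.7%.

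The called share depended on the level. It was 86.0% of genes with a mean under 5 CPM, 66.0% from 5 to 20 CPM, 36.3% from 20 to 100 CPM, 21.3% from 100 to 500 CPM and 17.6% above 500 CPM. Genes were kept on 20 counts in either pool, so a gene of low mean could pass only through the pool where it was high. The filter thus sets part of the called share at low levels, and how large a part was not tested. Genes well counted in one pool could be missing from the other. Of 6790 genes with at least 100 counts in the ythdf2-labelled pool, 220 (3.24%) had 0 in the mettl3-labelled pool. Of 7105 with at least 100 in the mettl3-labelled pool, 215 (3.03%) had 0 in the ythdf2-labelled pool. With at least 20 counts asked of both pools, 17.4% of 8562 genes were called higher and 18.0% lower.

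**Figure D1:**
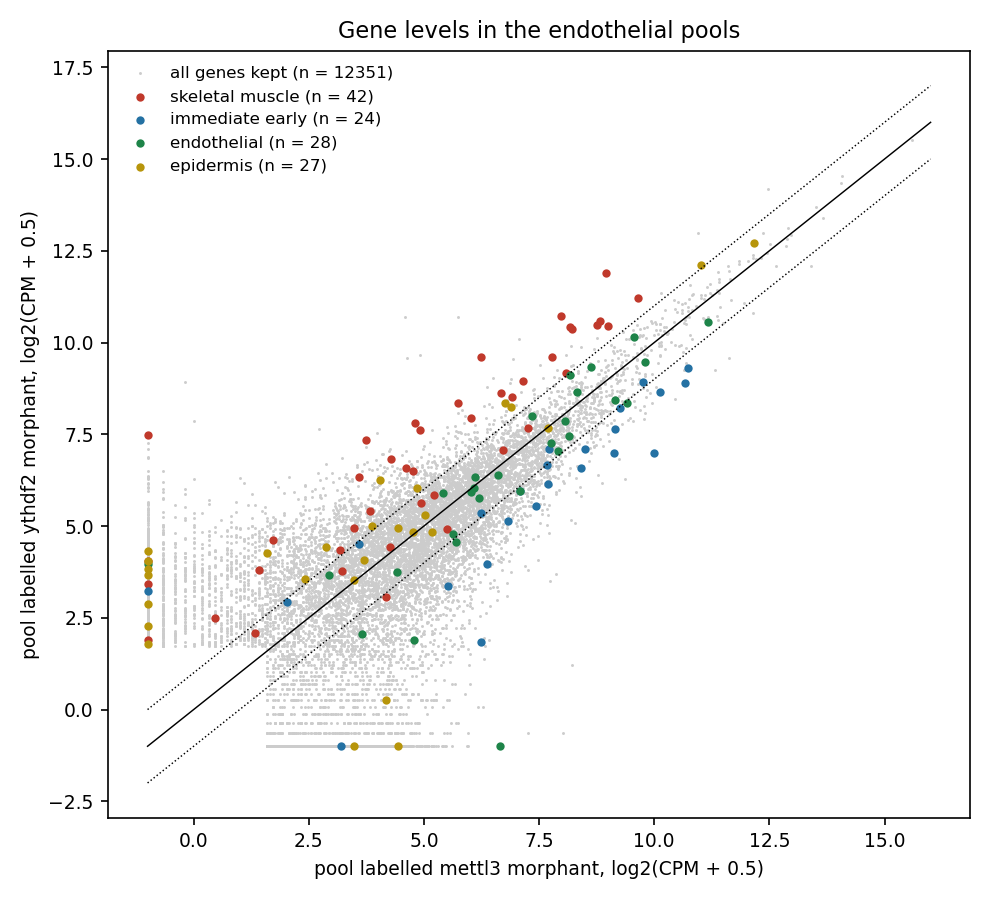
Level of each of the 12351 genes in the mettl3-labelled (x) and ythdf2-labelled (y) endothelial pools, as log2(CPM + 0.5), with equality as a solid line and 2-fold as dotted lines. Muscle genes lie mostly above the upper dotted line and immediate early genes mostly below the lower one, and genes at 0 in a pool form the lines at the left and lower edges.

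**Figure D2:**
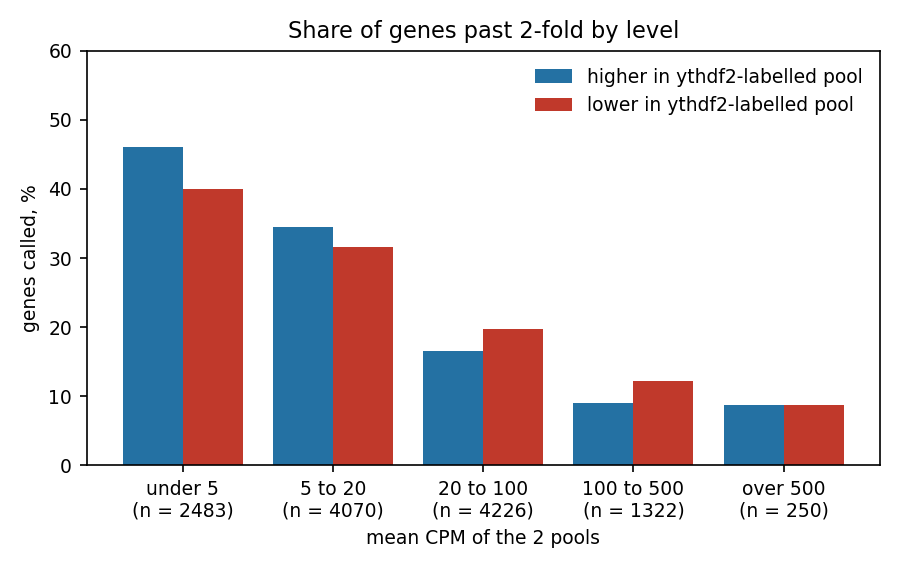
Share of genes (y, percent) called higher or lower in the ythdf2-labelled pool, by the mean CPM of the pools (x). The called share of both directions together decreases from 86.0% under 5 CPM to 17.6% above 500 CPM. Genes were kept on their counts in either pool, which sets part of the share at low levels.

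Endothelial markers were well above their whole-trunk level in both pools, with RNA of other cell types beside it. Of 45 written endothelial markers 30 matched a gene symbol, and together they reached 8150 and 8210 CPM in the mettl3-labelled columns, 7183 and 7086 CPM in the ythdf2-labelled columns and 2959 CPM in the control pool, against 333 and 435 CPM in the control embryo trunk inputs. Of those kept, vwf was at 0 counts under the mettl3 label and klf2b under the ythdf2 label. Skeletal muscle genes, by contrast, reached 5143 and 5190 CPM under the mettl3 label, 20888 and 20563 CPM under the ythdf2 label and 75683 CPM in the control pool. Their range in the trunk inputs was 56601 to 56928 CPM. Epidermal genes stood at 7358 and 7359 CPM under the mettl3 label and 12457 and 12353 CPM under the ythdf2 label. The pools therefore differed in muscle and epidermal RNA as well as in label. The part of these genes in the results below was not tested. The control pool held less RNA of the endothelial markers than the other pools. The CPM of a vessel gene there does not give its level per endothelial cell.

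Vessel genes were for the most part not called. Of 28 endothelial genes kept, 2 were called higher, 5 lower and 21 neither, with a median log2 fold of −0.31 against 0.02 over all genes. The most counted of them, plvapb, a component of vessel wall diaphragms, stood at 2296 and 2322 CPM under the mettl3 label and 1527 and 1489 CPM under the ythdf2 label, a log2 fold of −0.54 (−0.58 to −0.51) that fell short of the rule. The vascular receptor kinase genes tek (−0.62), TIE1 (−0.41) and flt1 (0.42) were likewise not called, while another, KDR, was called lower (−1.67).

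The 5 genes called lower included a junction gene and both klf2 paralogues. The flow-responsive transcription factor gene klf2b had 108 and 93.3 CPM under the mettl3 label and 80.2 CPM in the control pool. It had 0 counts under the ythdf2 label. Taking 3 counts over the pool as the floor, it was 228-fold lower there, and its counting interval ended at a log2 fold of −7.53. Its paralogue klf2a, which is also on the immediate early list (median −1.42), went from 131 and 138 CPM to 69.0 and 53.8 CPM. Its log2 fold was −1.06 (−1.22 to −0.90). The paralogue was thus still counted under the ythdf2 label. It stood at 63.5 CPM in the control pool, where the endothelial markers summed to 2959 CPM against 7134 CPM under the ythdf2 label. The gene of VE-cadherin, cdh5, the adhesion protein of endothelial junctions, had 26.9 and 26.8 CPM under the mettl3 label and 3.93 and 2.51 CPM under the ythdf2 label, with 25.7 CPM in the control pool and a log2 fold of −2.99 (−3.68 to −2.37). The guidance receptor gene robo4 (−1.09) and the VEGF receptor gene KDR (−1.67) were the others. Of the genes called higher, SOX7, an endothelial transcription factor gene, had 282 and 290.3 CPM under the mettl3 label and 559 and 552 CPM under the ythdf2 label (log2 fold 1.03, 0.95 to 1.10), and vwf, the gene of the clotting protein von Willebrand factor, had 0 counts under the mettl3 label and 13.2 and 17.3 CPM under the ythdf2 label.

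Most Notch and arterial genes were not called. Those called were dll4, HEY1, HEY2 and jag1b, higher under the ythdf2 label, and jag1a and cxcl12b, lower. Of 21 genes kept, 4 were called higher, 2 lower and 15 neither, with a median of −0.44. Over all genes 27.4% were called higher and 26.7% lower. With at least 20 counts in both pools, 19 remained, with 3 called higher and 1 lower. The ligand gene dll4, which is restricted to arteries and sprouting tip cells, had 247 and 243 CPM under the mettl3 label and 528 and 518 CPM under the ythdf2 label, with 168 CPM in the control pool and a log2 fold of 1.16 (1.08 to 1.24). The Notch target gene HEY2, an arterial transcription factor, had 169.95 and 187 CPM under the mettl3 label and 362 and 377 CPM under the ythdf2 label, with 41.9 CPM in the control pool. Its log2 fold was 1.12 (1.03 to 1.21). HEY1, another target, had 3.30 and 3.29 CPM against 33.4 and 33.2 CPM, a log2 fold of 3.41 (2.82 to 4.05). The ligand gene jag1b was higher at low counts (13 against 31), while its paralogue jag1a was lower (43 against 9 counts). The chemokine gene cxcl12b was also lower, at 226 and 238 CPM under the mettl3 label and 60.9 and 58.8 CPM under the ythdf2 label.

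Receptor genes, other ligand genes and other target genes of Notch were among those not called. The receptor genes NOTCH3 (−0.32) and notch2 (0.50) were not called, nor were the ligand genes dlb (−0.74) and dlc (0.63), the glycosyltransferase gene LFNG (−0.69), and the target genes her15.1 (−0.63) and heyl (0.63). In the venous and lymphatic list, none of 6 genes was called higher and 2 were lower, against 27.4% and 26.7% over all genes. NR2F2, the gene of the vein-determining factor COUP-TFII, had 109.998 and 114 CPM under the mettl3 label and 41.0 and 43.2 CPM under the ythdf2 label (log2 fold −1.34, −1.53 to −1.15), and the hyaluronan receptor gene lyve1b had 395 and 381 CPM against 142 and 135 CPM (−1.41, −1.52 to −1.31). The scavenger receptor gene stab2, the most counted of the list, was not called (0.36), nor was the venous receptor gene ephb4b (−0.57).

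Transcription factor genes of blood emergence were spread widely in both directions. Of 19 haemogenic and blood stem genes kept, 4 were called higher, 8 lower and 7 neither, with a median of −0.05. With at least 20 counts in both pools, 14 remained, with 3 called higher and 4 lower. Of those named below, gata2b passed the count minimum only through the ythdf2-labelled pool. The genes SPI1, spi1a, RUNX3 and mpl passed it only through the mettl3-labelled pool. On the higher side, gata2b, a factor of haemogenic endothelium in zebrafish, had 1.78 and 1.77 CPM under the mettl3 label, 45.2 and 49.4 CPM under the ythdf2 label and 0 counts in the control pool, a log2 fold of 4.81 (4.04 to 5.69). MYB, a blood stem cell factor gene, had 1.52 and 5.06 CPM under the mettl3 label and 14.3 and 15.1 CPM under the ythdf2 label, a log2 fold of 2.23 (1.60 to 2.91). Both were far below the control columns, which held 3284 and 3323 CPM of MYB. CBFB, the gene of the partner of Runx proteins, was higher (2.18, 1.79 to 2.59), as was CEBPA (1.30, 1.05 to 1.55).

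On the lower side stood the myeloid factor gene SPI1, which encodes Pu.1, with 268 and 251 CPM under the mettl3 label, 1 count under the ythdf2 label and 2.23 CPM in the control pool. Its log2 fold was −10.79 (−16.09 to −8.31). Its high level was thus seen under the mettl3 label alone among the endothelial pools. The genes spi1a, RUNX3 and mpl, picked out after their values were seen, had 48, 38 and 34 counts under the mettl3 label and 1, 1 and 0 under the ythdf2 label. CEBPB, an inflammatory transcription factor gene, had 984 and 995 CPM under the mettl3 label and 329.6 and 325 CPM under the ythdf2 label, a log2 fold of −1.52 (−1.59 to −1.46), and CEBPD followed with −2.31. Genes shared by endothelial and blood progenitors were level, with −0.05 for GATA2, −0.02 for TAL1 and 0.02 for LMO2. RUNX1 had 0 counts in all 3 pools, which allows up to 0.380 CPM under the mettl3 label and 0.419 CPM under the ythdf2 label. It had 10 and 8 counts in the far deeper control trunk inputs, so its change could not be assessed.

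Among other white blood cell genes the direction was not uniform. Of 21 myeloid genes kept, 7 were called higher, 9 lower and 5 neither (median 0.01). With at least 20 counts in both pools, 10 remained, with 3 called higher and 2 lower. The members itgb2, ctss2.1, WAS, ptprc, cd74a and cd74b, named below, passed the count minimum only through the pool where they were higher. The summed level of the 33 matched was 2092 and 2052 CPM under the mettl3 label, 1490 and 1404 CPM under the ythdf2 label and 950.5 CPM in the control pool. This list again holds CEBPB (990 CPM in the mettl3-labelled and 327 CPM in the ythdf2-labelled pool) and SPI1 (259 and 0.140 CPM). The lower sum under the ythdf2 label therefore does not give the direction of the other members. The small GTPase gene rac2 (1.39) and the integrin gene itgb2 (3.70) were higher under the ythdf2 label, while the protease gene ctss2.1 and the actin regulator gene WAS were at 0 counts there. The genes tyrobp, csf1rb and marco were at 0 counts in both pools, and lyz had 0 and 1. The leukocyte genes ptprc, cd74a and cd74b had 0 counts under the mettl3 label and 114, 73 and 33 under the ythdf2 label. In the reverse direction, 4 members kept were at 0 counts under the ythdf2 label. Erythroid genes were sparse in both pools, with gata1a at 0 and 2 counts, and 4 of the 13 kept were called higher and 5 lower. The embryonic globin genes hbae3 (−1.34) and hbbe3 (−1.90) were lower under the ythdf2 label.

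**Figure D3:**
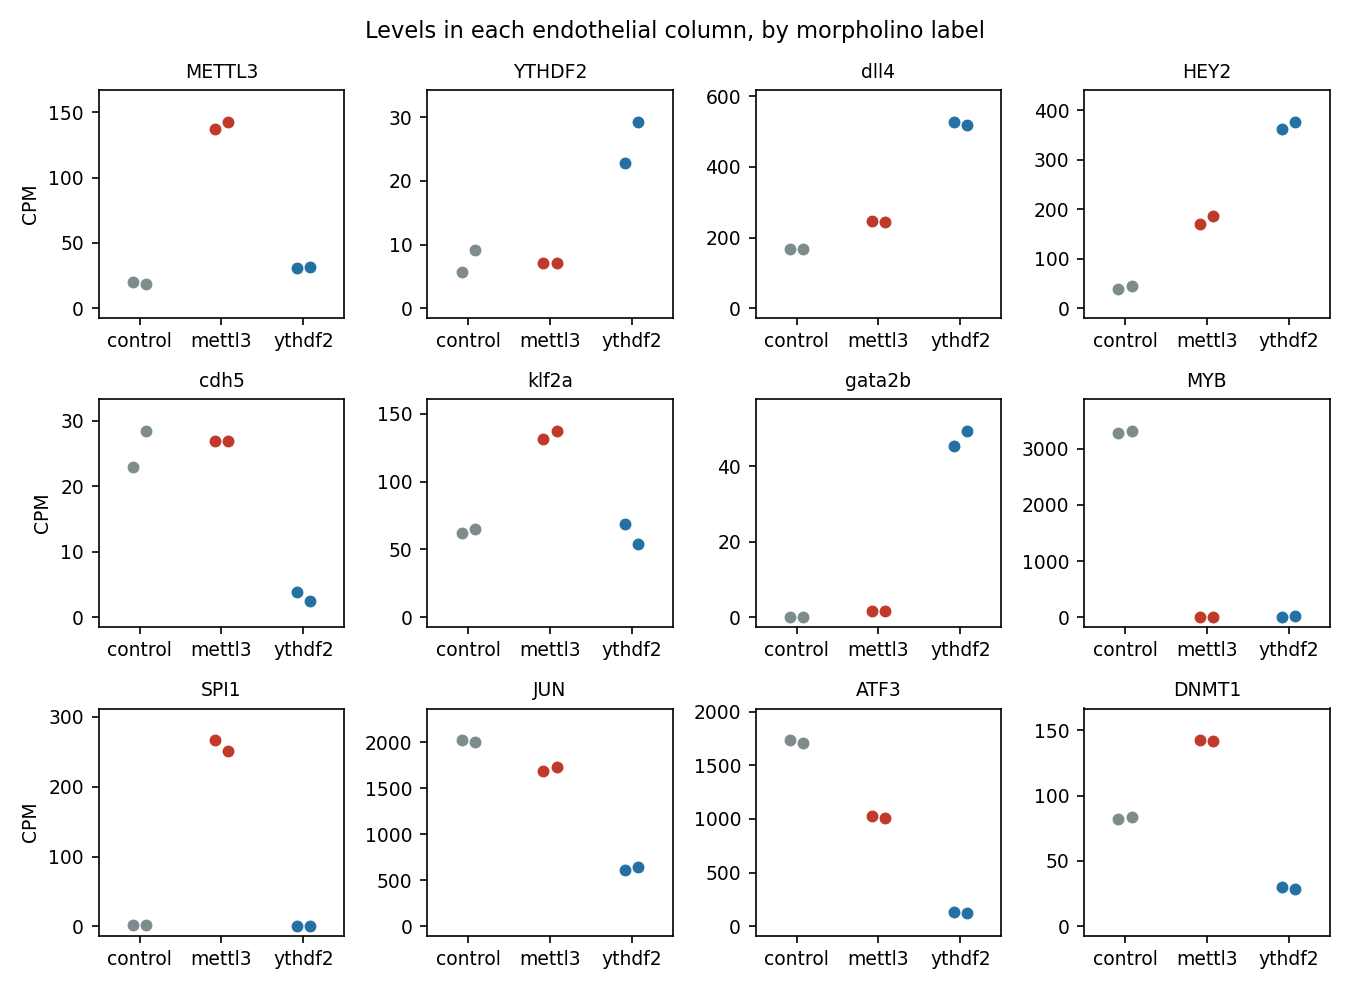
Level (y, CPM, linear axes from 0) of 12 genes in the 2 columns of each endothelial label (x). The columns of a label lie close together; dll4, HEY2 and gata2b are highest under the ythdf2 label, SPI1 and METTL3 under the mettl3 label, and MYB, at 3284 and 3323 CPM, in the control columns.

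TGF-beta and BMP signalling genes leaned to the mettl3 label. Of 20 genes kept, 1 was called higher, 9 lower and 10 neither, with a median of −0.71. Target genes of BMP signalling were among those lower, with ID3 at −2.06 (−2.34 to −1.79) and ID2 at −1.54 (−1.72 to −1.35). So was the receptor gene acvr1l (−1.17). The ligand gene tgfb1b was the exception, at 0 counts under the mettl3 label and 48 under the ythdf2 label.

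The m6A writer genes differed in direction by subunit. METTL14, whose protein forms the catalytic pair with Mettl3, was lower under the ythdf2 label like METTL3, with 64.8 and 61.5 CPM under the mettl3 label, 19.9 and 19.8 CPM under the ythdf2 label and 25.05 CPM in the control pool (log2 fold −1.60, −1.88 to −1.32). The regulatory subunit genes VIRMA, ZC3H13 and RBM15 were higher. VIRMA had 11.2 and 8.35 CPM against 62.5 and 61.9 CPM, a log2 fold of 2.74 (2.39 to 3.11). ZC3H13 had 67.1 and 58.9 CPM against 165 and 168 CPM, a log2 fold of 1.47 (1.32 to 1.63). The RNA-binding subunit gene RBM15 had 1 and 54 counts, and METTL16, a separate methyltransferase gene, had 0 and 309 counts. Both passed the count minimum only through the ythdf2-labelled pool. With at least 20 counts in both pools, 6 genes of the list remained, with 2 called higher and 2 lower. WTAP, the gene of the adaptor of the complex, and RBM15B were not called, at 0.61 and −0.01. Summed over the list, the 8 genes stood at 337 CPM under the mettl3 label and 410.3 CPM under the ythdf2 label. This sum joins the 2 members called lower, with METTL3 alone at 140 against 31.3 CPM, and the 4 called higher. It therefore does not show that the members were level.

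The other reader genes were mostly level. Of 10 reader genes kept, YTHDF2 was called higher, YTHDC1 (46 against 0 counts) and IGF2BP2 (61 against 19 counts) lower, and 7 neither. The paralogues YTHDF1 and YTHDF3 had log2 folds of 0.08 (−0.10 to 0.25) and −0.03 (−0.30 to 0.25). FTO, the gene of a demethylase, had 1 count under the mettl3 label, 73 under the ythdf2 label and 0 in the control pool. ALKBH5, the other demethylase gene, had 10 and 1 counts, under the count minimum. Genes of the decay machinery that Ythdf2 recruits did not share a direction. Of 38 deadenylation and decapping genes kept, 7 were called higher, 11 lower and 20 neither, with a median of 0.11. The decapping cofactor genes EDC4 (−1.50) and patl1 (−1.82) were lower, and the deadenylase gene CNOT7 (3.71, 2.85 to 4.69) and the poly(A)-binding protein gene PABPC4 (1.91, 1.73 to 2.08) were higher.

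Immediate early genes were lower under the ythdf2 label. These are genes induced within minutes by growth factors, stress or tissue dissociation, and many of them encode transcription factors. Of 24 genes kept, 16 were called lower, 3 higher and 5 neither, with a median log2 fold of −1.42. Their summed level was 10173 and 10051 CPM under the mettl3 label, 10858 CPM in the control pool and 3523 and 3546 CPM under the ythdf2 label. The summed level in the control trunk inputs, which were not made from isolated endothelial cells, was 525 and 671 CPM. The ythdf2-labelled pool was thus the low one of the endothelial pools, and the part of cell isolation in this difference was not tested. JUN, a subunit gene of the AP-1 factor, had 1686 and 1727 CPM under the mettl3 label and 609 and 644 CPM under the ythdf2 label, a log2 fold of −1.37 (−1.42 to −1.32). The stress factor gene ATF3 had 1025 and 1009.6 CPM against 131 and 121 CPM, a log2 fold of −2.94 (−3.04 to −2.84). The antiproliferative gene BTG2 (−1.70, −1.76 to −1.65) and the AP-1 gene JUNB (−1.41, −1.47 to −1.35) were lower as well. The exceptions were fosaa, at 0 against 64 counts, FOSL1 (1.08) and mych (1.03).

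Other stress programmes had members called in both directions. Of 32 heat shock and chaperone genes 9 were called higher, 7 lower and 16 neither (median 0.03). The small chaperone gene HSPB1 had 30.5 and 37.7 CPM under the mettl3 label and 119 and 129.9 CPM under the ythdf2 label (log2 fold 1.94), with 409 CPM in the control pool, while HSPA9, a mitochondrial chaperone gene, was lower (−1.33). Of 30 p53 and DNA damage genes 6 were called higher, 7 lower and 17 neither (median 0.08), with mdm2, the gene of the ligase that degrades p53, at 1.20 and the pro-apoptotic BAX at −1.01. In the unfolded protein response list 3 of 28 were called higher and 5 lower (median −0.18). The transcription factor gene atf4b was lower (−1.46, −1.54 to −1.38), and DDIT3, the gene of the pro-apoptotic factor CHOP, had 1 and 113 counts. Of 21 interferon and inflammation genes 10 were called higher and 9 lower (median −0.42). The adaptor gene MYD88 and the flagellin receptor gene tlr5b were lower, at −4.47 (−5.22 to −3.81) and −4.41 (−5.34 to −3.62). The interferon signalling genes irf9 (1.46) and stat2 (1.69) and the NF-kB gene nfkb2 (2.16) were higher. Summed levels in the mettl3-labelled and ythdf2-labelled pools were 1543 and 669 CPM for the interferon list and 3801 and 2694 CPM for the unfolded protein response. They were 3839 and 3330 CPM for the p53 list and 10974 and 11115 CPM for the heat shock list.

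The proliferation lists had negative medians. Their shares called lower lay near that of all genes, while few or no members were called higher. Of 39 DNA replication genes kept, none was called higher, 10 lower and 29 neither, with a median of −0.69. Over all genes 27.4% were called higher and 26.7% lower. DNMT1, the gene of the methyltransferase that copies DNA methylation after replication, had 143 and 142 CPM under the mettl3 label and 30.3 and 28.7 CPM under the ythdf2 label, a log2 fold of −2.20 (−2.42 to −1.98). The helicase subunit gene MCM3 (−1.07) and the single-strand binding gene RPA1 (−1.06) were lower by less. Of 45 mitosis genes 14 were called lower, 2 higher and 29 neither, with a median of −0.51. The kinetochore gene knl1 (−3.63, −4.09 to −3.20) and the kinase genes aurka (−2.61, −2.89 to −2.35) and AURKB (−1.04) were lower, and the mitotic genes CENPF (4.41) and kif20a (2.66) were higher. The summed level of the replication list was 5102 and 5155 CPM under the mettl3 label, 3452 and 3518 CPM under the ythdf2 label and 3619 CPM in the control pool.

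Genes of protein synthesis and respiration had positive medians and few calls. Of 65 cytosolic ribosomal protein genes, 5 were called higher, none lower and 60 neither, with a median of 0.53, and their sum was 79725 CPM under the mettl3 label and 101386 CPM under the ythdf2 label. RPS29 (2.09, 1.92 to 2.27) and RPL29 (1.60, 1.43 to 1.77) were among those called. Of 55 nuclear-encoded respiratory chain genes 13 were called higher and none lower, with a median of 0.52, such as the complex I gene NDUFV2 (1.48). Of the 13 mitochondrially encoded genes 3 were called higher, 1 lower and 9 neither (median 0.21). Those higher were mt-atp8 (3.32, 2.95 to 3.71), an ATP synthase subunit gene, and the complex I genes MT-ND3 (2.30, 2.13 to 2.47) and mt-nd4l (1.14, 1.03 to 1.26). The member called lower, MT-CO3, a cytochrome oxidase subunit gene, had 10781 and 10894 CPM under the mettl3 label and 4351 and 4358 CPM under the ythdf2 label, a log2 fold of −1.24 (−1.26 to −1.22). The control pool held 3868 CPM of it. Proteasome genes (1 higher, 2 lower of 34, median −0.30) and splicing factor genes (3 higher, 4 lower of 37, median −0.04) had few calls in either direction. Of 11 glycolysis and hypoxia genes 4 were called higher and none lower (median 0.53). Of these, ENO3, GAPDH and PGAM2 are also on the muscle list.

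**Figure D4:**
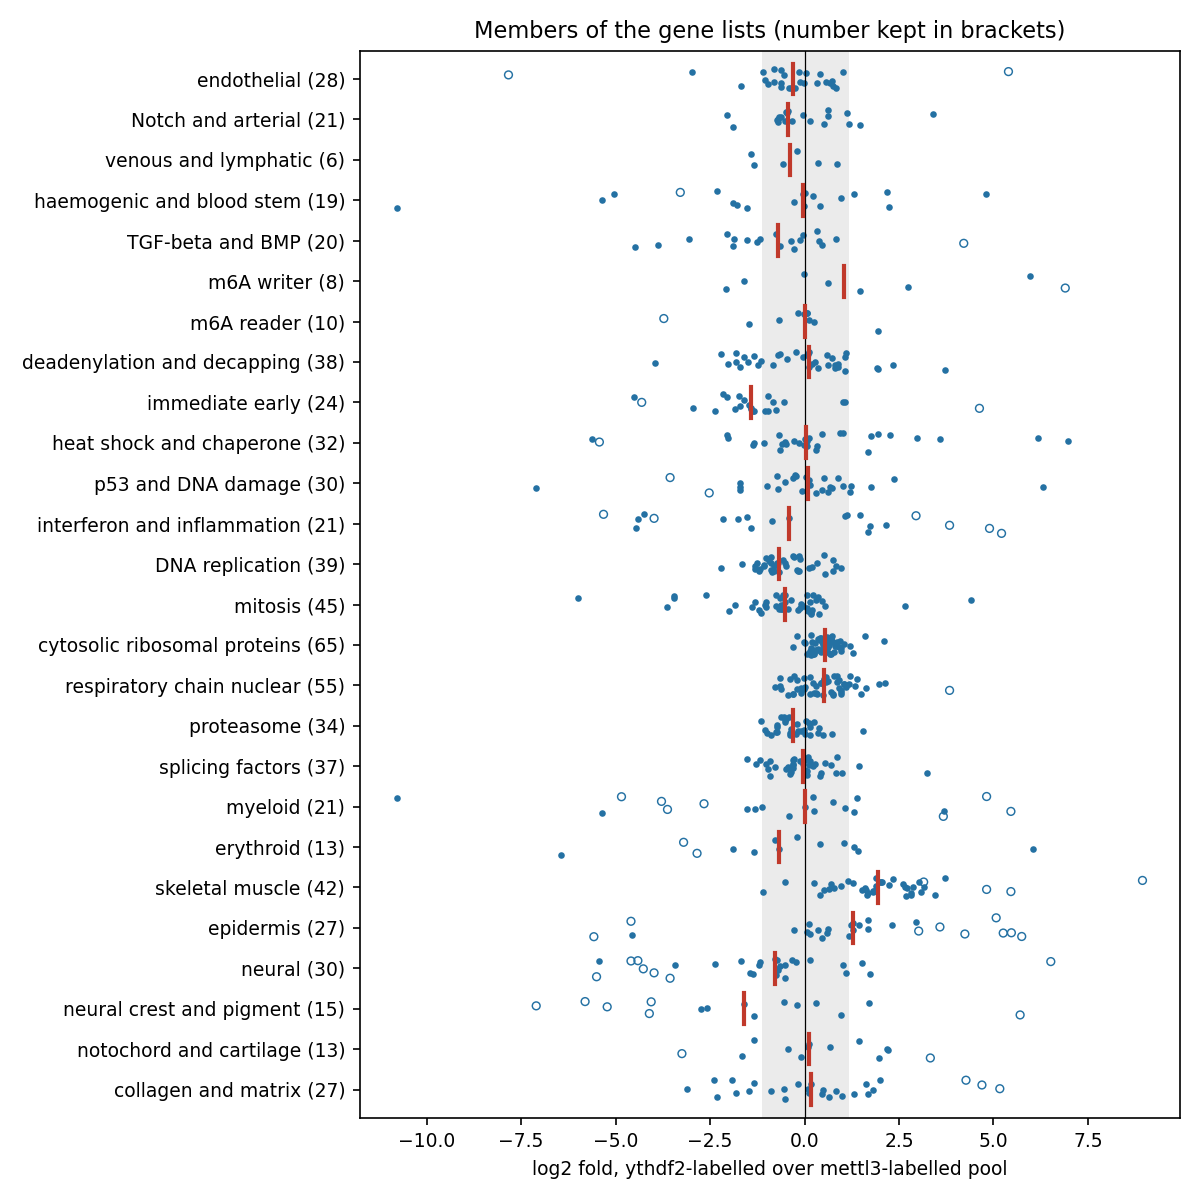
Log2 fold (x) of each kept member of 26 gene lists (rows), with the list median as a red bar, the quartiles of all genes as a grey band and folds against a pool at 0 counts as open circles at the floor of 3 counts. The medians run from −1.61 for neural crest and −1.42 for immediate early genes to 1.29 for epidermis and 1.95 for skeletal muscle.

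Skeletal muscle genes had the highest median of the lists described. Of 42 genes kept, 33 were called higher under the ythdf2 label, 1 lower and 8 neither, with a median log2 fold of 1.95. With at least 20 counts in both pools, 27 of 35 were called higher. The calcium pump gene atp2a1 had 495 and 489 CPM under the mettl3 label, 3822 and 3802 CPM under the ythdf2 label and 15223 CPM in the control pool, a log2 fold of 3.03 (2.98 to 3.08). The thin filament gene tpma (1.64, 1.60 to 1.68), the creatine kinase gene ckmb (1.83, 1.77 to 1.88) and the sarcomeric actin gene actc1a (2.82, 2.75 to 2.89) were higher as well. The muscle-determining genes MYOD1 and MYF5 were at 0 counts under the mettl3 label, as were MYOZ1 and tnnt2d. The calcium buffer gene pvalb3 was the member called lower (−1.09). Of 11 matched heart muscle genes 3 were kept, of which actc1a was called higher, and the heart genes MYL7, TNNT2 and nppa were at 0 counts in both pools. Paralogues of the actin, myosin and troponin families share sequence, and no source used here states the counting rule for shared reads.

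Epidermal genes were also higher. Of 27 genes kept, 16 were called higher, 3 lower and 8 neither, with a median of 1.29. The keratin genes krt4 (117 and 118 CPM against 307 and 298 CPM) and krt5 (102 and 113 CPM against 336 and 314 CPM) had log2 folds of 1.43 (1.32 to 1.54) and 1.67 (1.55 to 1.78), and krt8 had 1.18 (1.15 to 1.20). With at least 20 counts in both pools, 9 of 17 were called higher and none lower.

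Neural and neural crest genes had negative medians, with more members called lower than higher. Of 30 neural genes kept, 5 were called higher, 14 lower and 11 neither, with a median of −0.77. The glial filament gene GFAP had 195 and 199.5 CPM under the mettl3 label and 69.0 and 68.3 CPM under the ythdf2 label, a log2 fold of −1.45 (−1.60 to −1.30), and the progenitor factor genes sox19a (−1.36) and SOX3 (−1.17) were lower. The motor neuron factor gene MNX1 was the reverse, with 0 and 237 counts. With at least 20 counts in both pools, 3 of 19 neural genes were called higher and 5 lower. Of 15 neural crest and pigment genes kept, 9 were called lower, 2 higher and 4 neither (median −1.61). The early crest factor genes TFAP2A and TFAP2B had 478 and 195 counts under the mettl3 label and 0 under the ythdf2 label. Against the floor of 3 counts they were 137-fold and 56.0-fold lower there, with counting intervals ending at log2 folds of −6.80 and −5.50. The pigment gene pmela was the reverse, with 0 counts under the mettl3 label and 135 under the ythdf2 label. The crest marker gene FOXD3 was at 0 counts in both pools, and SOX10 had 17 and 1. With at least 20 counts in both pools, 8 genes of the list remained, with 1 called higher and 3 lower. The 3 were twist1a, ATIC and PAICS. The other genes called lower, among them TFAP2A, TFAP2B and the pigment gene pmelb (130 and 0 counts), passed the minimum only through the mettl3-labelled pool.

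Matrix genes were called in both directions at shares near those of all genes. Of 27 collagen and matrix genes kept, 8 were called higher, 7 lower and 12 neither (median 0.17). The genes of fibrillar collagen I were lower under the ythdf2 label, with log2 folds of −2.33 (−2.45 to −2.20) for COL1A2 and −1.47 (−1.55 to −1.40) for col1a1a. The proteoglycan gene vcanb was lower as well (−3.12). The basement membrane collagen genes COL4A1 (log2 fold 1.81) and col15a1b (4.01-fold) were higher, and the basement membrane laminin gene LAMA5 was lower (−1.35). In the notochord and cartilage list, 5 of 13 genes were called higher and 3 lower (median 0.12), with COL9A2 (1.43) and COL11A2 (2.19) among the higher and the link protein gene hapln1a (−1.66) among the lower. Of 8 pronephros and gut genes 3 were called higher and 1 lower. The floor plate and endoderm factor gene FOXA2 had 33.0 and 29.6 CPM under the mettl3 label and 143 and 146 CPM under the ythdf2 label (2.28, 2.08 to 2.48).

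The most separated genes over the whole table were mostly genes at or near 0 counts in a pool. On the higher side the hatching enzyme gene he1.1, which belongs to a family of similar copies, had 3 and 3486 counts, a log2 fold of 10.40 (8.85 to 12.67). The troponin T gene tnnt2d, the actin gene acte1 and the sodium pump subunit gene atp1b3b had 0 counts under the mettl3 label and 1274, 972 and 563 under the ythdf2 label. The troponin C gene TNNC1 had 4 and 1655 counts. The cathepsin gene ctslb, the sugar metabolism gene pgm1 and the fatty acid oxidation gene hadhaa also had 0 counts under the mettl3 label, as did zgc:174153, si:dkey-26g8.5, zgc:174855 and si:dkey-239j18.2. All 12 had counts in the control pool, from 207 for zgc:174153 to 1422 for he1.1.

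On the lower side, after SPI1, the homeobox gene GSX1 had 1214 counts under the mettl3 label and 1 under the ythdf2 label, with 1398 in the control pool. MIR142, the gene of a microRNA of blood cells, had 302 and 288 CPM under the mettl3 label and 1.96 and 1.67 CPM under the ythdf2 label, a log2 fold of −7.27 (−8.18 to −6.49). The control pool held 0.531 CPM. These are counts on the annotated gene, and the mature microRNA was not measured. SPI1 and MIR142 were thus both highest under the mettl3 label and low in the other pools. Both were picked for their low folds. They do not give the direction of other blood cell genes, which were called both ways. The cell cycle factor gene FOXM1, the endosomal gene RABGEF1, the chaperone gene dnajc3a, the kinase gene stk36, the sulfotransferase gene NDST4, TMEM9 and si:ch211-210p4.6 had between 297 and 381 counts under the mettl3 label and 0 under the ythdf2 label. All of these had counts in the control pool, from 93 for stk36 to 272 for FOXM1.

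The embryo libraries of the series allow the folds to be set beside the mark and the reader. A gene was taken as m6A-enriched when its scaled ratio of m6A IP to input was at least 2-fold in both control embryo pairs, and as RIP-enriched when the RNA bound to Flag-tagged Ythdf2 was at least 2-fold over control input in each pairing. These lists come from whole trunk, not from endothelial cells. Of 1244 m6A-enriched genes 415 were kept in the endothelial pools. Their median log2 fold was 0.40, against 0.02 over all genes, and 155 (37.3%) were called higher and 102 (24.6%) lower. They were also less counted than the rest, with a median level of 11.7 CPM against 17.6 CPM, and 21.7% of them were at 0 counts in a pool against 16.1%. With at least 20 counts in both pools, 240 remained, with a median of 0.21, and 51 (21.3%) were called higher and 36 lower, against 17.4% and 18.0% over all genes. The part of the level in these shares was not tested. The list also depended on the replicate 1 pair of IP and input, read at 151 bp against 101 bp for the other pair. Without replicate 1 of the control IP the enrichment rested on the other pair alone, a looser rule that gave a longer list. The median was then 0.10, with 291 genes called higher and 249 lower, counts that cannot be set beside the 155 and 102. Without replicate 1 of the input, which removes the same pair and is no separate check, they were 0.11, 292 and 249.

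RIP-enriched genes lay close to the shares of all genes. Of 1998 RIP-enriched genes 838 were kept, with a median of 0.01, and 29.8% were called higher and 28.3% lower. In RIP replicate 1, 42.9% of reads fell outside genes, against 13.4% and 12.5% in the control inputs. The list was not tried with a RIP library left out. The 96 kept genes that were both m6A-enriched and RIP-enriched had a median of 0.36, with 41 (42.7%) called higher and 23 (24.0%) lower. Their median level was 11.5 CPM, and 24.0% of them were at 0 counts in a pool, against 16.1% over all genes. With at least 20 counts in both pools 56 remained, with a median of 0.23. Of these, 16 (28.6%) were called higher and 8 (14.3%) lower, against 17.4% and 18.0% over all genes. Of 200 genes selected by the naming rule, 10 were m6A-enriched and 14 RIP-enriched, beside 415 and 838 of all 12351 genes kept. YTHDF2, ZC3H13 and RBM15, all higher under the ythdf2 label, were on both lists. Their log2 IP over input was 1.30 and 1.46, 1.26 and 1.57, and 1.31 and 1.28 in the control pairs. The RIP used tagged Ythdf2, and whether its YTHDF2 reads came from the tagged copy was not tested. RBM15, with 1 and 54 counts, passed the count minimum only through the ythdf2-labelled pool. These genes do not give the direction of the others on the lists. JUN and JUNB, lower under the ythdf2 label, were RIP-enriched and not m6A-enriched by this rule.

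**Figure D5:**
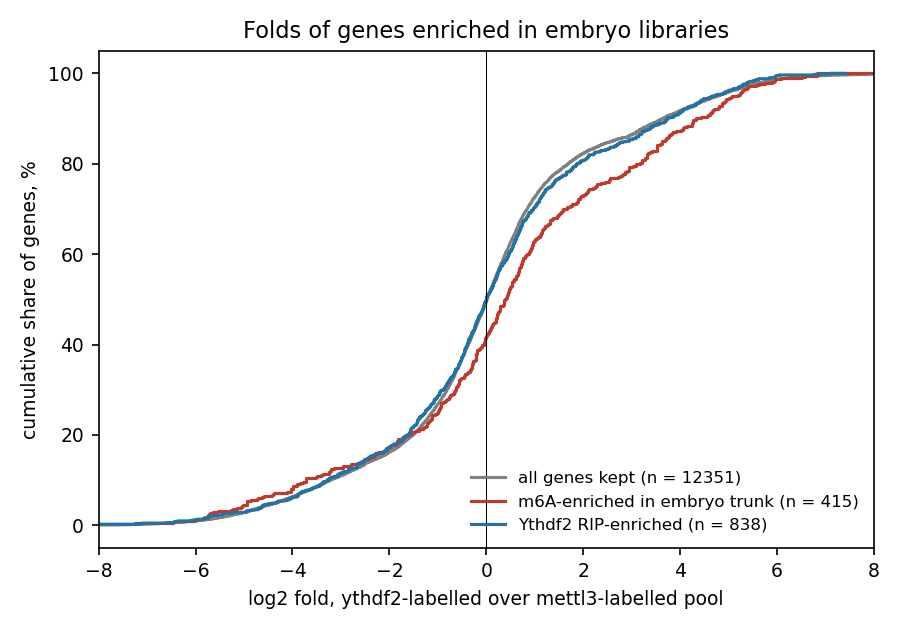
Cumulative share of genes (y, percent) by log2 fold of the ythdf2-labelled over the mettl3-labelled pool (x, shown from −8 to 8) for all 12351 genes, 415 m6A-enriched and 838 RIP-enriched genes. The m6A-enriched curve lies to the right of the others at positive folds, with a median of 0.40 against 0.02 and 0.01.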

How the data were processed

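RNA-seq of endothelial cells was analysed in 4 columns, with 2 control columns and 6 embryo libraries as reference. The authors deposited whole-number counts per gene for 33737 Ensembl IDs. The tools were TopHat2 2.0.9 and HTSeq, whose version is given as 0.5.3p9, per the submitters' processing notes. No source used here gives the genome build of the counts, the annotation release or the strand setting. HTSeq summary rows were dropped; in the endothelial columns 9.49% to 10.5% of reads fell outside genes and 2.92% to 3.77% on several genes. Symbols, printed as the gene name table gives them, covered 65.03% of IDs.

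Columns of a label were summed and scaled by TMM (edgeR 4.0.16 in R 4.3.3), which adds 0.07 to log2 folds against total-count scaling. Genes with at least 20 counts in a pool were kept. Intervals are exact binomial (Clopper-Pearson, scipy 1.17.1) at 95%, for counting error only, and were checked on simulated data. A pool at 0 counts was set to a floor of 3 counts over the pool, so its fold is set by that floor. List medians hold such members at that fold. The 33 gene lists hold 1556 written names, of which 1030 matched, and 33 genes are on more than 1 list. Members and lists were chosen with earlier results of these data known. The text names METTL3, YTHDF2, the 12 genes farthest apart in each direction by the near end of the interval, and up to 4 of the most counted called members per list and direction; further members of the m6A, endothelial, Notch, venous and blood lists and genes at 0 in both pools were named after their values were seen. Alternatives were other scalings (DESeq2 1.42.0 size factors, total counts, upper quartile), count minimums, call rules, columns left out and enrichment thresholds. The peak, region and single-site lists were not used here.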

Additional observations from a re-analysis of the deposited data

How the results depend on the processing

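Counts of called genes depended on the filter and the fold. With at least 100 counts in a pool, 1716 genes were called higher and 1938 lower, at 4-fold 2194 and 1996, and with at least 20 counts in both pools, an alternative added after the data were seen, 1491 and 1544. Under these settings m6A-enriched members called higher and lower numbered 71 and 52 (100 counts; median 0.15) and 51 and 36 (20 in both), and RIP-enriched members 129 and 138, 163 and 143 (4-fold), and 111 and 117. With enrichment of 1.5-fold the m6A list gave 534 and 438 (median 0.16) and the RIP list 447 and 431. At 4-fold enrichment they gave 9 and 1 (median 2.28) and 43 and 40, where the RIP median reversed to −0.14. Leaving out a column or an embryo library gave m6A medians from 0.10 to 0.44, with 149 to 292 higher and 98 to 249 lower. The extremes of 0.10, 292 and 249 came without replicate 1 of the control IP or input, either of which removes the same pair and lengthens the list. The cause was not tested. Other scalings moved the median fold by −0.07 to 0.02. Over the scalings, filters, call rules and columns left out, 18 counts of called genes stayed within 1.5 times the value reported and 6 did not. Folds of named genes stayed within their 95% counting interval in 1255 values and left it in 145, most often when a column was left out, and no called one changed sign. No paired analysis was possible because the columns of a label count as 1 sample. With 1 sample a label, depth sets the counting error alone and no spread between embryos is known.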
